A study of Mus musculus with 10 samples.

Results

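The comparison described here is Dicer knockout against Dgcr8 knockout in mouse E14 embryonic stem cells. It takes in 4 of the 10 small RNA libraries of the series, the 2 Dicer_KO and the 2 Dgcr8_KO libraries, chosen by genotype label and contrasted over every mature miRNA entry as shares of the library total. Both groups have the 129/Ola strain background of the series, come from blastocyst-derived cells, and were grown without feeders on gelatine-coated plates in medium with 15% serum and 100 U/mL LIF, the cytokine that keeps stem cells undifferentiated. Dgcr8_KO carries a knockout of Dgcr8, and Dicer_KO one of Dicer. The 2 WT libraries of the same cells are given for reference, and the Drosha_KO and Ago12_KO libraries enter the fit only to share its estimate of spread. The labels give no word on how the knockouts were made. Suffixes differ between the 2 Dicer_KO libraries, and also between the descriptions of the 2 WT libraries, and are not explained. A code is shared by the 2 Dgcr8_KO libraries and by no library of Dicer_KO or WT. These are all that the labels say of clones, cultures or runs. Genotype thus cannot be told apart from the culture or run it came with. Nothing states that replicates are separate cultures, so p-values measure the spread between these libraries, which may be technical.

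Most miRNAs are made in 2 cuts. In the nucleus the Microprocessor, formed by the nuclease Drosha and its RNA-binding partner Dgcr8, frees a hairpin from the primary transcript, and in the cytoplasm Dicer cuts the loop off to leave a duplex of a 5p and a 3p strand, of which Argonaute proteins keep mainly one. Some hairpins skip the first cut: mirtrons are short introns released by the spliceosome, a few hairpins are made directly as short capped transcripts, and others come from snoRNA or tRNA genes, yet all of these classically still need Dicer. A direct comparison of the knockouts asks which entries hold a lower share of the library when Dicer is lost than when Dgcr8 is lost.

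The entries at the low end of that contrast include several of these Dgcr8-independent hairpins, and the mature sequences of 7 such entries are shown. Sequences here and below are RefSeq entries on GRCm38.p6, written 5′ to 3′. RefSeq held 393 of the 481 tested entries. Capitals mark the seed, bases 2 to 8, which pairs with target mRNAs.
miR-484: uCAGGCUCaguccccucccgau
miR-877-5p: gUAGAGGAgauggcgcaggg
miR-702-3p: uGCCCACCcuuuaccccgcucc
miR-1981-5p: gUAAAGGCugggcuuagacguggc
miR-344-3p: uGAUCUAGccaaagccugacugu
miR-1983: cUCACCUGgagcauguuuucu
miR-1839-5p: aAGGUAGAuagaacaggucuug
These 7 entries have 7 different seeds. The hairpin of miR-484 lies at chr16:14159626-14159692 on the plus strand, opposite an exon of Marf1. That of miR-877 lies in an intron of Abcf1 at chr17:35960730-35960814 on the minus strand, that of miR-1981 in an intron of Marc2 at chr1:184822407-184822488 on the minus strand, and that of miR-702 overlaps an annotated exon of Plod3 at chr5:136991433-136991541 on the plus strand. miR-1839 lies in a scaRNA gene at chr7:81529916-81529988 on the plus strand, and miR-1983 at chr13:21896918-21897049 on the minus strand, outside any other annotated gene. miR-344-3p has 2 hairpins in RefSeq, both in introns of noncoding genes on chromosome 7.

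The total count was 289539 and 408654 in the Dgcr8_KO libraries and 45222 and 37476 in the Dicer_KO libraries, so that the mean total was 8.44 times higher in Dgcr8_KO. A single count was worth 3.45 and 2.45 CPM (counts divided by the library total and scaled to 1000000) in Dgcr8_KO and 22.1 and 26.7 CPM in Dicer_KO. Where a group had no count at all, its level is bounded by 3 counts over the group, which is 36.3 CPM in Dicer_KO and 4.30 CPM in Dgcr8_KO. Folds against such a group are given as "at least", and they cover counting error only. The 5 most abundant entries held 73.3% ± 1.73 (SD, n = 2) of the Dicer_KO counts and 51.6% ± 0.425 (SD, n = 2) of the Dgcr8_KO counts. Thinned to 37476 counts, the Dgcr8_KO libraries would show 425.3 and 430.7 entries, a mean of 92.3 more than the Dicer_KO libraries. The mRNAs of Dicer and Dgcr8 themselves were not measured, so the genotype labels were not checked from the data.

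Of the 1907 mature entries, 481 passed the filter on low counts. An entry could pass by being high in a single group, Dgcr8_KO or Dicer_KO included. For such entries the direction of the contrast is partly set by the filter, in the counts here and in the lists below. edgeR called 76 of them higher in Dicer_KO than in Dgcr8_KO (15.8%) and 150 lower (31.2%), and 255 were not called. The 4 libraries did not overlap for 105 entries with Dicer_KO higher (21.8%) and for 275 with Dgcr8_KO higher (57.2%). Counts in Dgcr8_KO but none in Dicer_KO were found for 26.6% of the tested entries, and counts in Dicer_KO but none in Dgcr8_KO for 17 entries (3.53%). The median log2 fold change, Dicer_KO minus Dgcr8_KO, was -0.56 over the 328 entries with counts in both groups and -0.46 over 451 entries with those at 0 in one group set at their bound.

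The split between higher and lower depended on the denominator. With DESeq2 size factors in edgeR 23.9% of the tested entries were higher and 15.4% lower. The split was 25.4% and 13.7% with the 5 leading Dicer_KO entries left out of the library sizes, and 27.9% and 15.8% in DESeq2 with its own size factors. With no scaling, which keeps the difference in total count in the folds, 19 entries were higher (3.95%) and 338 lower (70.3%). The median fitted log2 fold change of all tested entries was -1.87 with column totals, -0.45 with DESeq2 size factors, -0.19 with the 5 leading entries out and -4.24 with no scaling. A fold below is a difference in share of the library, not in amount per cell, and less RNA of an entry per cell cannot be told apart from more of the others.

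**Figure D1:**
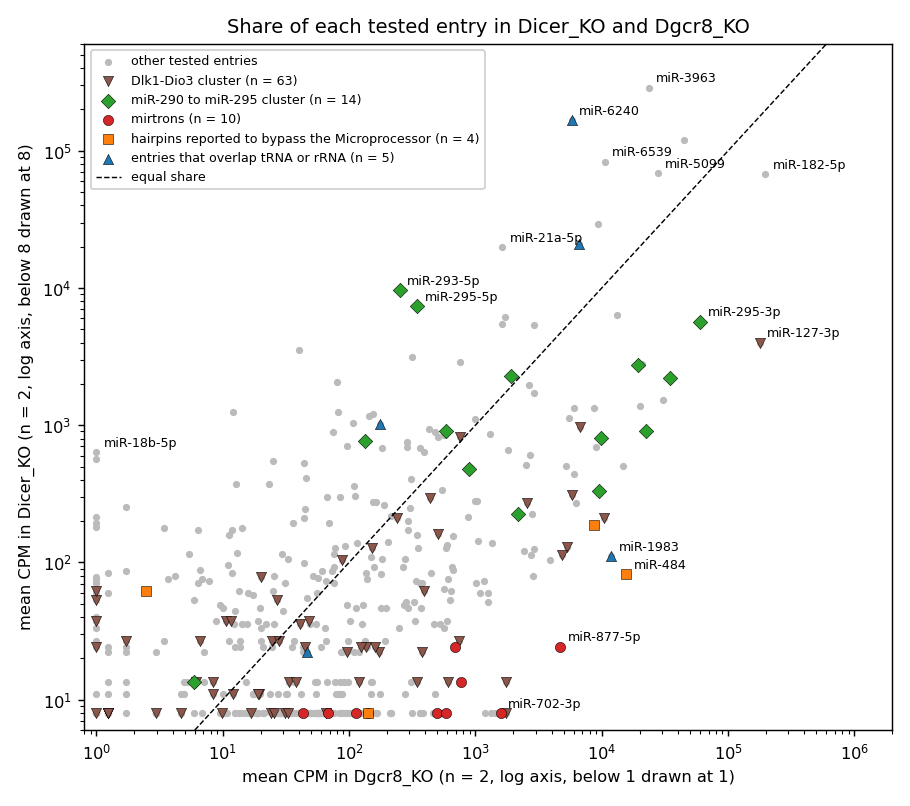
Mean CPM of each of the 481 tested entries in Dgcr8_KO (x axis, log scale) and Dicer_KO (y axis, log scale), 2 libraries a group, with 5 lists in colour the line of equal share dashed, and values under an axis floor drawn at it. miR-484, miR-877-5p and miR-1983 lie far below the line, and miR-3963, miR-6240, miR-293-5p and miR-295-5p above it.

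Each knockout was also set against WT in the same fit, to sort entries by which loss they were lower in. These contrasts share the WT libraries with each other and the knockouts with the direct contrast, so the classes are a description. Against WT, 156 entries were higher in Dgcr8_KO (32.4%) and 197 lower (41.0%), and 64 were higher in Dicer_KO (13.3%) and 205 lower (42.6%). A class of 70 entries was lower than WT in Dicer_KO, not lower than WT in Dgcr8_KO, and lower in Dicer_KO than in Dgcr8_KO directly. These 70 held 41.5% and 40.7% of the WT counts, 67.8% and 68.8% of the Dgcr8_KO counts, and 9.97% and 8.06% of the Dicer_KO counts. A further 129 entries were lower than WT in both knockouts; they held 48.9% and 50.4% of the WT counts, 12.4% and 11.98% of the Dgcr8_KO counts and 2.67% and 2.99% of the Dicer_KO counts. The 208 entries that were lower in neither held 2.87% and 2.42% in WT, 17.8% and 17.1% in Dgcr8_KO, and 81.4% and 84.4% in Dicer_KO. The other 74 entries fell into none of these classes. With column totals, most of the Dgcr8_KO library was thus made of the first class and most of the Dicer_KO library of entries lower in neither knockout. The classes were not made with any other denominator. miR-182-5p and miR-127-3p, the most abundant of the 70 in Dgcr8_KO (means of 197471 and 178994 CPM), lost their direct lower call with DESeq2 size factors. The edgeR adjusted p-values were 0.701 and 0.062, and 0.642 and 0.0779 with the 5 leading entries out.

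Within the class of 70, 27 entries were higher than WT in Dgcr8_KO and lower than WT in Dicer_KO. They include the mirtrons miR-877, miR-702 and miR-3102, miR-484 and miR-1983, but also entries of ordinary Drosha-cut hairpins: miR-182-5p, miR-291a-5p, miR-294-3p, miR-30a-5p and miR-17-5p. miR-182-5p alone stood at 193345 and 201596 CPM in Dgcr8_KO, 78258 and 57023 CPM in Dicer_KO, and 125617 and 120284 CPM in WT. miR-26a-5p, a widely expressed miRNA, was level between Dgcr8_KO (29968 and 30965 CPM) and WT (29011 and 27288 CPM) and far lower in Dicer_KO, at 1526 and 1521 CPM. Its log2 fold change between the knockouts was -4.32 ± 0.26 (SE, adjusted p = 5.57e-07). The class thus holds hairpins of both kinds. It leaves out miR-1981-5p, miR-344-3p, miR-1839-5p and miR-320-3p, which were not called lower than WT in either knockout.

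Hairpins reported to bypass the Microprocessor made up a far smaller share of the Dicer_KO libraries. Of the 4 tested entries of miR-320, miR-484 and miR-344, 3 were lower in Dicer_KO (75%, against 31.2% of all tested entries) and 1 higher (25%, against 15.8%). The summed share of a list is given here and below over all its entries, tested or not; for this one it was 2.54% and 2.36% in Dgcr8_KO and 0.0265% and 0.0400% in Dicer_KO, a 73.6-fold difference, with 0.147% in WT. miR-484, transcribed as a short capped hairpin, stood at 16281 and 14915 CPM in the Dgcr8_KO libraries and 110.6 and 53.4 CPM in the Dicer_KO libraries, on 5 and 2 counts, against 1031 and 1196 CPM in WT. The groups were far apart, and the log2 fold change was -7.54 ± 0.45 (SE, adjusted p = 5.57e-07). miR-320-3p, from another such hairpin, stood at 8945 and 8533 CPM in Dgcr8_KO and 110.6 and 266.8 CPM in Dicer_KO, a log2 fold change of -5.56 ± 0.52 (SE, adjusted p = 6.84e-06). Its partner strand miR-320-5p went the other way on very few counts, 0 and 2 in Dgcr8_KO and 2 and 3 in Dicer_KO, and its call (adjusted p = 0.00881) was lost without Dicer_KO replicate 2 (adjusted p = 0.116) and with no scaling (adjusted p = 0.331). miR-344-3p had 48 counts in each Dgcr8_KO library and none in Dicer_KO, at least 3.79-fold lower; all its counts were multiples of 2, and its call was lost with the 5 leading entries out (adjusted p = 0.0572).

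Mirtrons, Dicer substrates cut out by splicing, showed the same ordering. Of 23 mirtron entries, 10 were tested, and 9 of these were lower in Dicer_KO (90%, against 31.2% of all tested entries) and none higher. The libraries did not overlap for any of the 10, all with Dgcr8_KO higher, a state found for 57.2% of all tested entries. By group means, miR-702-5p, miR-3102-3p.2-3p and miR-3102-5p.2-5p were above the filter minimum of 38.5 CPM in Dgcr8_KO but not in WT or Dicer_KO. Their direction may thus be set in part by the filter, so the 9 and the 10 are a description only. All 23 together held 0.931% and 0.927% of the Dgcr8_KO counts, 2697 and 3790 counts, but 2 and 3 counts in Dicer_KO, or 0.00442% (95% exact Clopper-Pearson interval 0.000536 to 0.0160) and 0.00801% (0.00165 to 0.0234). That is a 150-fold difference in share, and the WT share of 0.0613% lay between. miR-877-5p stood at 4642 and 4769 CPM in Dgcr8_KO, 22.1 and 26.7 CPM in Dicer_KO, a single count in each, and 215.03 and 270.6 CPM in WT. Its log2 fold change was -7.59 ± 0.57 (SE, adjusted p = 1.96e-06). miR-702-3p stood at 1644 and 1542 CPM in Dgcr8_KO with no count in Dicer_KO, at least 43.7-fold lower, and miR-877-3p at 576.8 and 589.7 CPM with none, at least 16.1-fold lower. miR-1981-5p stood at 832.4 and 712.1 CPM in Dgcr8_KO and had 0 and 1 count in Dicer_KO. The median log2 fold change of the 10 with bounds was -3.89, beside -0.46 over all entries. With DESeq2 size factors or the 5 leading entries out, 6 of the 10 were still called lower. With the libraries of 2 against 2, the exact two-sided permutation test on a list's share cannot go below p = 0.333, here and for each list below.

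Entries numbered miR-6896 to miR-7094, many of them annotated as short introns, were less uniform. Only 32 of 403 were tested, of which 15 were lower (46.9%, against 31.2% of all tested entries) and 2 higher in Dicer_KO (6.25%, against 15.8%). Of the 32, 23 had no Dicer_KO count, a state found for 26.6% of all tested entries. Some of these were near the Dicer_KO bound of 36.3 CPM in Dgcr8_KO itself, such as miR-7035-3p at a mean of 49.7 CPM. The median log2 fold change with bounds was -0.60, beside -0.46 over all entries. Their share was 0.553% and 0.546% in Dgcr8_KO, 0.0951% and 0.0587% in Dicer_KO and 0.0746% in WT. miR-6944-3p, in an intron of Dbn1, stood at 1392 and 1241 CPM in Dgcr8_KO with no count in Dicer_KO, at least 35.9-fold lower. miR-7068-3p stood at 1112 and 1074 CPM against 66.3 and 53.4 CPM, a log2 fold change of -4.17 ± 0.47 (SE, adjusted p = 2.74e-05). miR-7003-3p was called higher by a narrow margin, at 110.5 and 110.1 CPM in Dgcr8_KO and 265.4 and 346.9 CPM in Dicer_KO (adjusted p = 0.0491), and lost the call without either replicate of either knockout (adjusted p = 0.117 to 0.22). The 15 lower calls became 4 and 5 without Dicer_KO replicate 1 or 2, 8 and 7 without Dgcr8_KO replicate 1 or 2, and 3 with DESeq2 size factors.

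**Figure D2:**
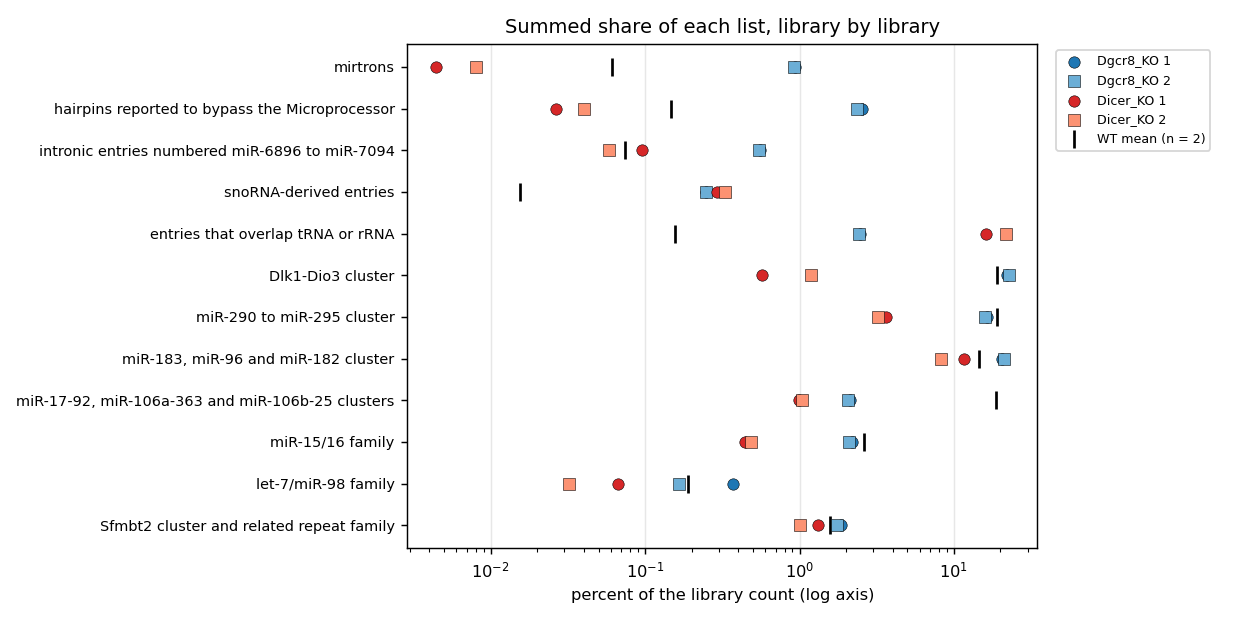
Summed share of 12 lists, as percent of the library count (log axis), in each Dgcr8_KO library (blue) and Dicer_KO library (red), with the WT mean as a black bar. Mirtrons, bypass hairpins and the Dlk1-Dio3 cluster are separated by more than 1 unit of the log10 axis. The snoRNA-derived entries are close together, and tRNA or rRNA entries are higher in Dicer_KO.

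The snoRNA-derived list held members of opposite sign. Small nucleolar and Cajal body RNAs guide RNA modification, and some give rise to Dicer-cut fragments. Of 6 tested entries 2 were lower (33.3%, near the 31.2% of all tested entries), 1 higher (16.7%, near 15.8%) and 3 not called. The summed share was 0.249% and 0.246% in Dgcr8_KO and 0.292% and 0.328% in Dicer_KO. miR-1839-5p fell from 1243 and 1277 CPM in Dgcr8_KO to 66.3 and 53.4 CPM in Dicer_KO, a log2 fold change of -4.38 ± 0.49 (SE, adjusted p = 2.74e-05), and its partner miR-1839-3p was at least 4.62-fold lower with no Dicer_KO count. miR-3535, in a snoRNA gene within Ncl, was at 801.3 and 717.0 CPM in Dgcr8_KO and 2609 and 3202 CPM in Dicer_KO, a log2 fold change of 1.94 ± 0.36 (SE, adjusted p = 0.00113) that turned to -1.14 with no scaling. miR-1839-5p was close to WT in Dicer_KO (49.2 and 40.6 CPM in WT), whereas miR-3535 was above WT in both knockouts.

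Entries that overlap tRNA or rRNA were split in the same way. Of 5 tested, 3 were higher in Dicer_KO (60%, against 15.8% of all tested entries), 1 was lower (20%, against 31.2%) and 1 was not called. The share of the list was 2.47% and 2.43% in Dgcr8_KO and 16.2% and 21.6% in Dicer_KO, against 0.157% in WT. miR-6240 alone made up most of it in Dicer_KO, at 146942 and 187720 CPM against 5847 and 5760 CPM in Dgcr8_KO and 748.6 and 907.0 CPM in WT. Its log2 fold change was 4.85 ± 0.29 (SE, adjusted p = 5.57e-07), and it stayed called higher with no scaling. miR-6236 (1.67 ± 0.40, SE, adjusted p = 0.00506) and miR-6538 (2.53 ± 0.62, SE, adjusted p = 0.00568) were the other 2; both turned negative with no scaling, and both lost the call without Dicer_KO replicate 2 (adjusted p = 0.0608 and 0.0503), which left 1 of the 3. miR-1983, a fragment reported from an isoleucine tRNA gene, ran against the rest of the list. It stood at 12209 and 11580 CPM in Dgcr8_KO, 88.45 and 133.4 CPM in Dicer_KO and 514.9 and 629.2 CPM in WT, a log2 fold change of -6.76 ± 0.39 (SE, adjusted p = 5.57e-07).

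The entries that led the Dicer_KO libraries were miR-3963, miR-6240, miR-5126, miR-6539 and miR-5099. The first pair are printed because they make up so much of these libraries, with the seed in capitals.
miR-3963: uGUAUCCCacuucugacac
miR-6240: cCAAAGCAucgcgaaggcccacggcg
The first is 19 bases long and the second 26, against a median of 22 over the tested entries with a RefSeq sequence. miR-3963 stood at 323117 and 253816 CPM in Dicer_KO, 24007 and 23210 CPM in Dgcr8_KO, and 3211 and 1920 CPM in WT, with a log2 fold change between the knockouts of 3.61 ± 0.36 (SE, adjusted p = 1e-05). miR-6539 (2.97 ± 0.26, SE, adjusted p = 4.68e-06) and miR-5099 (1.30 ± 0.26, SE, adjusted p = 0.00168) were higher in Dicer_KO as well. miR-5126 was at 87258 and 151510 CPM in Dicer_KO and 46798 and 43516 CPM in Dgcr8_KO without a call (1.40 ± 0.90, SE, adjusted p = 0.209). All 5 were above WT in both knockouts. With no scaling only miR-6240 of these 5 was called higher, miR-3963 was at 0.55 (adjusted p = 0.309), and miR-5126, miR-6539 and miR-5099 turned negative.

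The miR-290 to miR-295 cluster, the most characteristic miRNA cluster of mouse embryonic stem cells, which promotes rapid division, was present in both knockouts. Its share was 16.2% ± 0.264 (SD, n = 2) in Dgcr8_KO, 3.43% ± 0.271 (SD, n = 2) in Dicer_KO and 19.1% in WT. Of its 14 tested strands 8 were lower in Dicer_KO (57.1%, against 31.2% of all tested entries), 3 higher (21.4%, against 15.8%) and 3 not called. miR-291a-5p was at 35000 and 33742 CPM in Dgcr8_KO and 2388 and 2001 CPM in Dicer_KO (-3.97 ± 0.26, SE, adjusted p = 9.33e-07). miR-294-3p was at 21772 and 22672 CPM in Dgcr8_KO and 574.9 and 1227 CPM in Dicer_KO (-4.63 ± 0.38, SE, adjusted p = 2.85e-06), and miR-295-3p, the most abundant strand of the cluster in WT, at 61584 and 58680 CPM against 4644 and 6698 CPM (-3.41 ± 0.26, SE, adjusted p = 1.96e-06).

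The 3 strands that ran the other way were miR-293-5p, miR-293-3p and miR-295-5p. miR-293-5p was at 224.5 and 281.4 CPM in Dgcr8_KO but 10681 and 8672 CPM in Dicer_KO, close to its WT level of 10315 and 11137 CPM, with a log2 fold change of 5.25 ± 0.35 (SE, adjusted p = 9.97e-07). miR-295-5p was at 352.3 and 342.6 CPM in Dgcr8_KO, 8447 and 6244 CPM in Dicer_KO, and 570.0 and 546.3 CPM in WT (4.40 ± 0.38, SE, adjusted p = 4.04e-06). Both stayed called higher with no scaling. The 3 strands of this cluster that share the seed CUCAAAC are shown, because they did not move together.
miR-290a-5p: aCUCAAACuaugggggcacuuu
miR-292a-5p: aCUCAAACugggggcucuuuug
miR-293-5p: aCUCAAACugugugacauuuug
miR-290a-5p (-3.25 ± 0.35, SE, adjusted p = 2.01e-05) and miR-292a-5p (-2.83 ± 0.24, SE, adjusted p = 3.68e-06) were lower in Dicer_KO, while miR-293-5p was higher. Their hairpins lie within a few kilobases of each other on the plus strand of chromosome 7, that of miR-290a at chr7:3218626-3218708 and that of miR-293 at chr7:3220343-3220422.

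The miR-15/16 family, which restrains the cell cycle, was divided in a similar way. Of 12 tested strands 5 were higher (41.7%, against 15.8% of all tested entries), 2 lower (16.7%, against 31.2%) and 5 not called. The share of the family was 2.20% and 2.10% in Dgcr8_KO and 0.442% and 0.483% in Dicer_KO. The share was set by miR-16-5p, at 21248 and 20289 CPM in Dgcr8_KO and 2609 and 2935 CPM in Dicer_KO (-2.91 ± 0.28, SE, adjusted p = 7.96e-06). miR-15b-5p had no count in Dgcr8_KO but 597.1 and 533.7 CPM in Dicer_KO, on 27 and 20 counts, and 526.3 and 512.4 CPM in WT, so it was at least 132.3-fold higher in Dicer_KO. miR-15a-5p was likewise at 0 in Dgcr8_KO and at 243.2 and 186.8 CPM in Dicer_KO, at least 50.7-fold higher. The pair miR-15b-5p and miR-16-5p is shown because both carry the seed AGCAGCA and both have a hairpin in the same intron of Smc4, on the plus strand of chromosome 3.
miR-15b-5p: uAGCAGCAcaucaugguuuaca
miR-16-5p: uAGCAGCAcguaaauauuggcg
Of the 6 tested strands with this seed, miR-15a-5p, miR-15b-5p and miR-195a-5p were higher in Dicer_KO, miR-16-5p and miR-497a-5p lower, and miR-322-5p was not called. RefSeq also places a second hairpin of miR-16-5p on chromosome 14, and the counts do not separate the 2.

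The proliferation-linked clusters around miR-17, miR-106a and miR-106b had 26 tested strands, of which 6 were higher (23.1%, against 15.8% of all tested entries), 6 lower (23.1%, against 31.2%) and 14 not called. With DESeq2 size factors 11 were higher and 2 lower, and with the 5 leading entries out 13 and 1. miR-18b-5p had no count in Dgcr8_KO and stood at 663.4 and 613.7 CPM in Dicer_KO and 615.4 and 750.6 CPM in WT, at least 149-fold higher in Dicer_KO than in Dgcr8_KO. miR-17-5p moved the other way, from 2856 and 2645 CPM in Dgcr8_KO to 66.3 and 160.1 CPM in Dicer_KO (-4.64 ± 0.41, SE, adjusted p = 4.68e-06). miR-92a-3p, the leading strand of these clusters, was at 13166 and 13363 CPM in Dgcr8_KO and 6369 and 6271 CPM in Dicer_KO, against 150940 and 161093 CPM in WT. Its fold between the knockouts was small (-1.07 ± 0.21, SE, adjusted p = 0.00146) and became 0.36 with DESeq2 size factors and 0.63 with the 5 leading entries out. The share of these clusters was 2.14% and 2.07% in Dgcr8_KO and 0.986% and 1.04% in Dicer_KO, and turned to 1.37 percentage points higher in Dicer_KO with the 5 leading entries out of the denominator.

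In the cluster of miR-183, miR-96 and miR-182, 3 of 6 strands were higher in Dicer_KO (50%, against 15.8% of all tested entries) and 2 lower (33.3%, against 31.2%). miR-182-5p was lower (-1.55 ± 0.24, SE, adjusted p = 0.000298), a call lost with DESeq2 size factors (-0.13, adjusted p = 0.701) and turned to 0.14 with the 5 leading entries out. miR-183-5p, from the same primary transcript, was higher, at 34784 and 23935 CPM in Dicer_KO against 8980 and 9536 CPM in Dgcr8_KO (1.67 ± 0.27, SE, adjusted p = 0.000464), and turned to -1.40 with no scaling. The share of the cluster was 20.4% and 21.2% in Dgcr8_KO and 11.6% and 8.27% in Dicer_KO, and turned to 12.6 percentage points higher in Dicer_KO with the 5 leading entries out of the denominator.

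The Dlk1-Dio3 cluster, an imprinted array of miRNAs on chromosome 12 linked to full developmental potency, differed 25.6-fold in share: 22.2% and 22.7% in Dgcr8_KO, 0.568% and 1.18% in Dicer_KO, and 19.1% in WT. Of 63 tested strands 16 were lower in Dicer_KO, 4 higher and 43 not called. The 25.4% lower is below the 31.2% of all tested entries, and the 6.35% higher is below the 15.8%. miR-127-3p carried most of the share in Dgcr8_KO, at 176394 and 181594 CPM in Dgcr8_KO, 2897 and 5070 CPM in Dicer_KO, and 81585 and 79577 CPM in WT. The 2 groups were far apart, but with the spread shared over all 5 groups the log2 fold change was -5.49 ± 1.65 (SE, adjusted p = 0.0176), and it lost the call without Dicer_KO replicate 1 (adjusted p = 0.141) or replicate 2 (adjusted p = 0.107), with DESeq2 size factors (adjusted p = 0.062) and with the 5 leading entries out (adjusted p = 0.0779). miR-431-5p (-5.64 ± 1.31, SE, adjusted p = 0.00427; 0.0634 without Dicer_KO replicate 1) and miR-136-5p, at 1803 and 1669 CPM in Dgcr8_KO and none in Dicer_KO, at least 47.5-fold lower, were others. The 4 higher strands were miR-134-5p, miR-134-3p, miR-666-3p and miR-1193-3p, each with no count in Dgcr8_KO and at most 4 counts in any Dicer_KO library. The 16 lower calls became 6 and 9 without Dicer_KO replicate 1 or 2, 7 with DESeq2 size factors and 5 with the 5 leading entries out.

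let-7, the differentiation-linked family whose precursors Lin28 blocks in stem cells, was low in all 4 libraries, at 0.370% and 0.166% in Dgcr8_KO and 0.0663% and 0.0320% in Dicer_KO. Of 10 tested strands 3 were lower, let-7c-5p, let-7g-5p and let-7i-5p, and 7 not called; the 30% lower is near the 31.2% of all tested entries. let-7f-5p differed between the Dgcr8_KO libraries, at 1806 and 269.2 CPM, and was not called (adjusted p = 0.0706); without Dgcr8_KO replicate 2 the number of lower strands was 5. In the repeat-rich Sfmbt2 cluster and its relatives, 9 of 44 strands were lower (20.5%, against 31.2% of all tested entries) and 3 higher (6.82%, against 15.8%). With DESeq2 size factors 2 of these strands were lower and 6 higher, and with the 5 leading entries out 2 and 7. The share of the Sfmbt2 list was 1.86% and 1.76% in Dgcr8_KO and 1.32% and 1.01% in Dicer_KO. It turned to 2.20 percentage points higher in Dicer_KO with the 5 leading entries out. Counts of several of its members were all multiples of one number (12 for miR-669a-5p, 11 for miR-669a-3p, 10 for miR-467a). Of the cluster of miR-302 and miR-367, which shares seeds with the miR-290 cluster, 2 of 10 strands were tested, and miR-302a-5p was higher on 2 and 4 Dicer_KO counts. Neither miR-451, matured by Ago2 without Dicer, nor miR-1306, whose hairpin lies in the Dgcr8 transcript, had a tested entry; miR-451 had 2 and 0 counts in Dgcr8_KO and none in Dicer_KO, and miR-1306 had 0 and 3 and none.

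**Figure D3:**
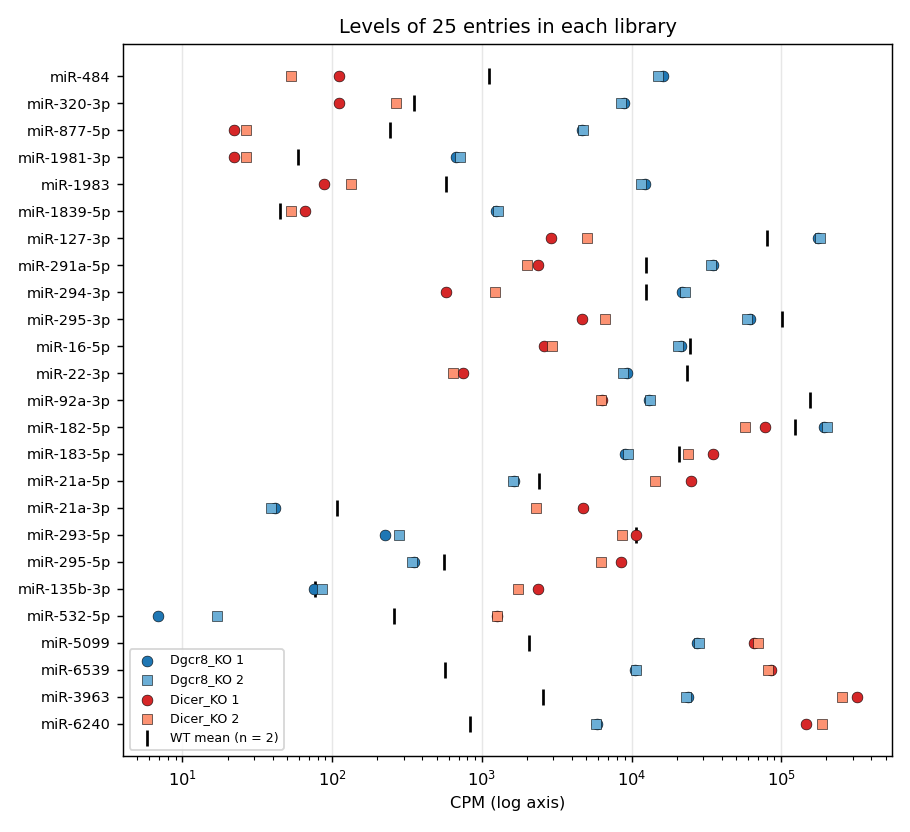
CPM (log axis) of 25 entries in each Dgcr8_KO library (blue) and Dicer_KO library (red), with the WT mean as a black bar. The upper entries sit lower in Dicer_KO, from miR-484 to miR-182-5p, and the lower entries sit higher in Dicer_KO, from miR-183-5p to miR-6240.

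A set of 19 entries was higher in Dicer_KO even with no scaling, on raw counts from libraries with smaller totals; they are described after their values were seen. Of these, 10 had no count in either Dgcr8_KO library: miR-18b-5p, miR-15b-5p, miR-15a-5p, miR-19b-1-5p, miR-425-5p, miR-130b-5p, miR-302a-5p, miR-470-5p, miR-1247-5p and miR-134-5p. The others were miR-181a-2-3p, miR-532-5p, miR-21a-3p, miR-1247-3p, miR-293-5p, miR-499-5p, miR-6240, miR-135b-3p and miR-295-5p. miR-532-5p had 2 and 7 counts in Dgcr8_KO and 57 and 47 in Dicer_KO, which is 6.91 and 17.1 CPM against 1260 and 1254 CPM (6.60 ± 0.62, SE, adjusted p = 6.84e-06). miR-425-5p, at 487.3 and 538.6 CPM in WT, was at 176.9 and 186.8 CPM in Dicer_KO and at 0 in Dgcr8_KO, at least 42.2-fold higher in Dicer_KO. Both arms of miR-135b, miR-135b-3p (4.66 ± 0.38, SE, adjusted p = 2.85e-06) and miR-135b-5p (3.93 ± 0.44, SE, adjusted p = 2.74e-05), were higher in Dicer_KO and not called against WT in Dgcr8_KO; the second lost its call with no scaling (adjusted p = 0.198). Against WT, miR-21a-3p, miR-532-5p and miR-183-3p were lower in Dgcr8_KO and higher in Dicer_KO.

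Since Dicer frees both strands of a hairpin, the balance of the arms was compared as well. It needs no library size, but the 0.5 added to each arm pulls the ratio toward 0 where counts are few, as in Dicer_KO. Of the counts of entries named for an arm, the 5p arms held 52.7% in each Dgcr8_KO library and 82.5% and 77.2% in the Dicer_KO libraries. Such entries made up 84.6% and 85.1% of the Dgcr8_KO counts but 26.1% and 21.1% of the Dicer_KO counts. Among 35 hairpins whose arms each averaged 20 counts or more, limma called 10 shifted toward 5p in Dicer_KO (28.6%) and 11 toward 3p (31.4%). Of these 21 calls, 7 were of hairpins with fewer than 20 counts in a library. Among them miR-702, called toward 5p, had no Dicer_KO count, and miR-877, called toward 3p, had 1 count in each Dicer_KO library, both 5p, so these calls came from the added 0.5 and no shift is read from them. Without Dgcr8_KO replicate 1 or replicate 2, 2 of the 35 hairpins were called in each direction, miR-182 and miR-290a toward 3p and miR-702 and miR-376b, with at most 2 counts in a Dicer_KO library, toward 5p. Among the 19 hairpins with at least 20 counts in every library, a set chosen after seeing the data, 7 shifted toward 5p (36.8%) and 7 toward 3p (36.8%). For 2 of the called hairpins, miR-669a and miR-467a, all counts were multiples of one number (12 and 11 for the arms of the first, 10 for the second). These may not be counts of separate reads, so the minimum of 20 may not hold for this pair. Over those 19, 5 toward 5p and 3 toward 3p were called without either Dgcr8_KO library: miR-295, miR-669a, miR-294, miR-148a and miR-293, and miR-182, miR-290a and miR-21a. A group left with 1 library is taken to vary like the other.

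The hairpins of 4 such miRNAs are shown with the arm whose part rose in Dicer_KO in capitals, the 5p arm for the first 2 and the 3p arm for the others.
miR-295: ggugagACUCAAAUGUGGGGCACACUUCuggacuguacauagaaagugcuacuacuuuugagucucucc
miR-293: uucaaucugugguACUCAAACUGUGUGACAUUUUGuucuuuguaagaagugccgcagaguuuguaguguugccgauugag
miR-21a: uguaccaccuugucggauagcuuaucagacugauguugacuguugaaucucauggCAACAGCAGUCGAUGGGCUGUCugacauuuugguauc
miR-182: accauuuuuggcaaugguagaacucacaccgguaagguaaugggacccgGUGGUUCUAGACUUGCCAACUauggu
miR-295 had the largest change among the 35 hairpins. Its 5p arm held 0.569% and 0.580% of the arm counts in Dgcr8_KO and 64.5% and 48.2% in Dicer_KO, a change in the log2 ratio of 5p to 3p of 7.81 ± 0.41 (SE, adjusted p = 0.0023). For miR-293 the 5p arm held 64.4% and 66.1% in Dgcr8_KO and 93.4% and 91.8% in Dicer_KO (2.74 ± 0.19, SE, adjusted p = 0.0033), and for miR-294 2.78% and 2.35% against 65.3% and 37.0% (5.32 ± 0.69, SE, adjusted p = 0.0102). In limma over the 35 hairpins the calls were lost without Dgcr8_KO replicate 1 or 2, at adjusted p = 0.0578 and 0.0579 for miR-295, 0.0611 and 0.0579 for miR-293, and 0.143 and 0.144 for miR-294. Over the 19 hairpins they were kept, at adjusted p = 0.00779 and 0.00959 for miR-295, 0.0245 and 0.0221 for miR-293, and 0.0245 and 0.0279 for miR-294. miR-669a showed 5p arms at 75.2% and 66.5% in Dgcr8_KO and no 3p count in Dicer_KO, on counts that were multiples of 12 and 11.

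Toward 3p, miR-182 changed by -5.12 ± 0.22 (SE, adjusted p = 0.00163), although its 5p arm still held 98.6% and 98.8% in Dicer_KO after 99.96% and 99.97% in Dgcr8_KO. The 5p arm of miR-290a held 54.6% and 51.5% in Dgcr8_KO and 9.15% and 8.70% in Dicer_KO (-3.45 ± 0.15, SE, adjusted p = 0.00163). The 5p arm of miR-21a held 97.5% and 97.6% in Dgcr8_KO and 84.2% and 86.2% in Dicer_KO (-2.77 ± 0.16, SE, adjusted p = 0.00245), a call lost over the 35 hairpins without Dgcr8_KO replicate 1 or 2 (limma adjusted p = 0.0526 and 0.0579) and kept over the 19 (0.0232 and 0.0221); both arms of miR-21a rose, the 3p arm more. Within the miR-290 cluster the shifts thus went both ways, miR-295, miR-294, miR-293 and miR-292a toward 5p and miR-290a toward 3p (miR-292a lost its call without Dgcr8_KO replicate 1 or 2 over the 35 and over the 19 hairpins), while miR-291a was not called (0.84 ± 0.36, SE, adjusted p = 0.156).

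**Figure D4:**
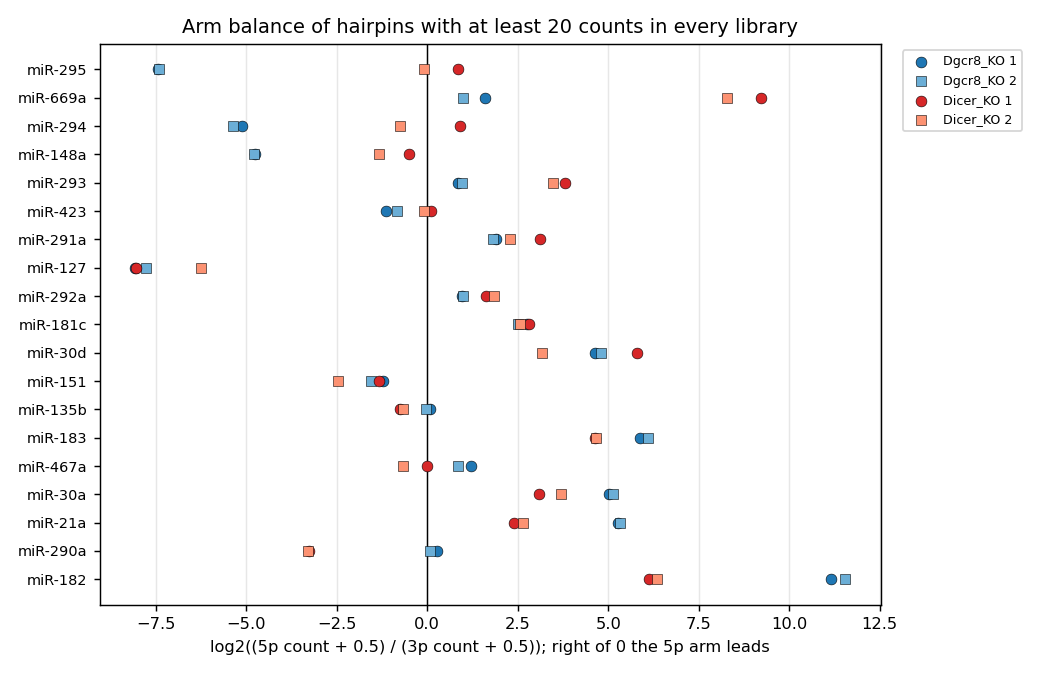
The log2 ratio of 5p to 3p counts (0.5 added to each) in each Dgcr8_KO library (blue) and Dicer_KO library (red) for the 19 hairpins with at least 20 counts in every library, ordered by the difference between the groups. miR-295, miR-669a and miR-294 moved right, toward 5p, in Dicer_KO, and miR-182, miR-290a and miR-21a moved left, toward 3p.

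Markers of other cell types were present at low shares. Fibroblast or feeder markers held 1.44% to 1.51% of Dgcr8_KO and 1.91% to 3.25% of Dicer_KO counts, with 3 of 12 tested strands higher (25%, against 15.8% of all tested entries) and 2 lower (16.7%, against 31.2%). The higher ones include miR-21a-5p, a miRNA abundant in many cultured cells, at 25143 and 14329 CPM in Dicer_KO against 1647 and 1620 CPM in Dgcr8_KO (3.59 ± 0.40, SE, adjusted p = 2.74e-05). With no scaling miR-21a-5p lost its edgeR call (0.56, adjusted p = 0.303). miR-22-3p, of the same list, went the other way (-3.70 ± 0.28, SE, adjusted p = 1.96e-06), and miR-214 and miR-199b-5p were at 0 in all 4 libraries. Blood markers held 0.491% to 0.497% in Dgcr8_KO and 0.0730% to 0.0854% in Dicer_KO, with 2 of 7 lower, both strands of miR-142a. That is 28.6%, near the 31.2% of all tested entries. miR-144 was at 0 in all 4 libraries. With DESeq2 size factors or the 5 leading entries out, 3 blood strands were higher and 1 lower, and miR-142a-3p lost its call there (adjusted p = 0.331 and 0.532) and without Dicer_KO replicate 1 or 2 (adjusted p = 0.0888 and 0.0537). Neural markers held 0.149% to 0.172% and 0.0294% to 0.0730%, with 2 of 5 lower (40%, against 31.2%), or 1 with either of those denominators. Muscle markers held 0.00147% to 0.00276% and 0.0376% to 0.0400%, with miR-1a-3p and miR-206 at 0. The 1 tested strand, miR-499-5p, was higher, as were 15.8% of all tested entries. Liver, gut and endoderm markers held 0.0190% to 0.0223% and 0.0240% to 0.0509%, with miR-215 at 0. Of 3 tested strands 1 was higher (33.3%, against 15.8% of all tested entries) and 2 were lower (66.7%, against 31.2%). Both lower calls, of miR-194-5p and miR-375-3p, were lost with DESeq2 size factors, with the 5 leading entries out and without Dicer_KO replicate 1 or 2. The part of such cells in the contrast was not tested.

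Sequence features of the called sets are given without a test. Mature sequences were at hand for 85.5% of the 76 entries higher in Dicer_KO and 83.3% of the 150 lower. Their median GC content was 47.8% and 50%, their median length was 22 bases in both, and 40% and 44.8% began with U.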

How the data were processed

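Small RNA libraries were made with a TruSeq small RNA kit from 1 ug of Trizol-extracted RNA, per the labels' protocols. The authors deposited raw counts per mature miRNA entry, whole numbers with no normalization. Bowtie and the mm10 build are named in the submitters' processing notes; not given in the sources used here are the counter, the miRBase release and the handling of reads that match several hairpins, so counts of near-identical miRNAs are uncertain. The comparison, its lists and its rules were chosen with earlier results of these data known.

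edgeR 4.0.16 (R 4.3.3) fitted the 5 genotype groups, 2 libraries each, in one quasi-likelihood model (5 residual degrees of freedom); library sizes were the column totals and the filter was filterByExpr (minimum count 10, minimum total 15, here a CPM minimum of 38.5). P-values were Benjamini-Hochberg adjusted over 481 entries, with calls at 0.05. The SE of an edgeR fold was worked back from the test, as the absolute log2 fold change over the square root of the quasi-likelihood F statistic. Arm balance, log2 of 5p over 3p counts with 0.5 added, was tested with limma 3.58.1 over hairpins whose arms each averaged 20 counts or more. DESeq2 1.42.0 was an alternative, with other library sizes, filters, sample sets, a replicate block and left-out libraries. Named were the 10 highest and 10 lowest called entries of at least 500 CPM in a group, up to 4 per list and the 5 most abundant per group, 83 in all; other named entries were chosen after their values were seen. RefSeq held mature sequences for 64 of the 83. Replicates differed by more than sampling noise: chi-square over its degrees of freedom was 17.2 between the Dicer_KO libraries and 3.876 between the Dgcr8_KO libraries. On simulated counts for the 481 entries, edgeR recovered 11.9% of 2-fold, 49.3% of 4-fold and 62.1% of 8-fold changes, with 1.2% of calls false. Both knockouts were given one pooled level per entry, apart from the changed entries, and a spread taken from these same libraries. A shift in which entries fill the library was not simulated, so these rates cannot be carried over to the real contrast. On 60 simulated hairpins limma recovered 100% of 4-fold shifts, with 4.76% of calls false. These log2 ratios were drawn with the same spread for every hairpin, without counts or the added 0.5. In the data the SD of the Dicer_KO ratios reached 1.17 for miR-294 and 3.19 for miR-434, so the simulated rates cannot be carried over to the real hairpins.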

Additional observations from a re-analysis of the deposited data

How the results depend on the processing

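Depth and the denominator set most limits: a single count weighs 22.1 to 26.7 CPM in Dicer_KO, and a few entries fill that library. TMM factors, the other filters, DESeq2 with column totals, the 2-fold minimum and leaving out the tRNA and rRNA entries kept the count of higher and of lower calls within 1.5 times of the main one. Calls in percent of the entries tested, higher and lower, went from 15.8 and 31.2 to 23.9 and 15.4 (DESeq2 size factors in edgeR), 25.4 and 13.7 (5 leading entries out, chosen after seeing the data), 27.9 and 15.8 (DESeq2 with its own size factors) and 3.95 and 70.3 (no scaling). The cause of these and the following changes was not tested. For the lists, the number lower became, in the same order of settings, 3, 3, 3 and 29 for entries miR-6896 to miR-7094, 2, 1, 2 and 12 for the miR-17, miR-106a and miR-106b clusters, 7, 5, 9 and 42 for Dlk1-Dio3, and 2, 2, 2 and 36 for Sfmbt2. With no scaling, let-7 had 7 lower and the snoRNA list 6, and tRNA or rRNA entries had 1 higher, the miR-183 cluster 0 and miR-15/16 2. With only the 4 libraries fitted, 9 of the intronic, 4 of the snoRNA and 17 of the Sfmbt2 entries were lower, and with no filter 5 of let-7.

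Leaving out 1 library at a time (WT, Drosha_KO and Ago12_KO libraries after seeing the data) gave 4 to 16 lower intronic entries, 1 to 3 higher tRNA or rRNA entries, 2 to 5 lower let-7 strands (5 also without Drosha_KO replicate 2), 6 to 21 lower Dlk1-Dio3 strands, 2 to 13 hairpins toward 5p and 2 to 16 toward 3p (5 to 9 and 3 to 9 over those with at least 20 counts in every library). Over all entries the range was 10.9% to 15.5% higher and 18.7% to 30.0% lower. A mean of 50 counts per arm left 4 hairpins toward 5p, and at least 20 counts per hairpin in every library, chosen after seeing the data, 7 toward 3p. At equal depth the difference of 92.3 entries became 67.8 at a minimum of 2 counts and 67.2 without tRNA and rRNA entries.

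Some named entries with a call turned sign in log2 fold change. With no scaling these were miR-7003-3p at -1.61, miR-3535 at -1.14, miR-6236 at -1.46, miR-6538 at -0.54, miR-183-5p at -1.40, miR-183-3p at -0.029, miR-6539 at -0.11 and miR-5099 at -1.79. miR-92a-3p turned to 0.36 with DESeq2 size factors in edgeR or in DESeq2 itself and to 0.63 with the 5 leading entries out, where miR-182-5p turned to 0.14. Entries without a call in the main fit that turned with no scaling include miR-5126 (-1.70), miR-25-3p (-2.41), miR-669a-5p (-2.13), miR-669p-5p (-2.12) and miR-486a-5p (-2.38). With the 5 leading entries out, miR-150-5p (1.01) and miR-467a-3p (0.96) turned as well.

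Differences in share, Dicer_KO minus Dgcr8_KO in percentage points, moved with the denominator. Without tRNA and rRNA entries they were -0.945 for mirtrons, 0.130 for the snoRNA list, -12.4 for the miR-290 cluster and -0.902 for the miR-17, miR-106a and miR-106b clusters. Without the 5 leading entries they were, in that order, -1.02, 0.865, -5.68 and 1.37, and -0.341 for intronic entries, -2.64 for bypass hairpins, 6.18 for tRNA or rRNA entries, 12.6 for the miR-183 cluster, -0.718 for miR-15/16, -22.0 for Dlk1-Dio3 and 2.20 for Sfmbt2.

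The replicate numbers are not stated to pair libraries, and deviations of same-numbered libraries correlated at 0.0206 over 481 entries. With the replicate block 15.4% of the entries were higher and 31.0% lower, and 8 hairpins shifted toward 5p and 8 toward 3p.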
